A study of Mus musculus with 6 samples.

Results

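The receptors described here are those through which growth factors and cytokines steer myeloid development: Flt3, Kit, Csf1r, Csf2ra, Csf2rb, Csf2rb2, Csf3r, Il3ra, Il4ra and Il7r. They were taken by symbol from a table of 54532 genes, and all 10 were among the 12266 genes tested, with a mean above 1 FPKM in both groups. FPKM scale the fragments of a gene to its length and to the size of the library. RNA came from CD11c-sorted cells, which the labels call dendritic cells, from melanomas grown in C57Bl/6 mice and harvested on day 28. In the Gli2CA group (3 libraries) the implanted BRAFV600EPTEN-/- melanoma cells carried an active Gli2, a transcription factor of the Hedgehog pathway. In the NTC group (3 libraries) cells of the same BRAFV600EPTEN-/- line carried a non-targeted control. Both kinds of cells had been grown in puromycin and were implanted in Matrigel. The genetic difference therefore lay in the tumour cells and not in the sorted cells, and the labels give no age of the mice and do not say how many mice stand behind a group.

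FLT3, KIT and CSF1R are receptor tyrosine kinases, and the others signal through associated Janus kinases and STAT proteins. FLT3 ligand drives dendritic cell development from bone marrow progenitors, CSF1 and IL-34 acting on CSF1R sustain monocytes and macrophages, and GM-CSF (Csf2) acts on both lines. In tumours the balance of these signals is known to bear on how many dendritic cells and macrophages are present.

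Libraries held about 18770000 to 29110000 fragments, and once thinned to one depth the Gli2CA libraries covered 13978 to 15176 genes, against 11359 in NTC 1, 14066 in NTC 2 and 11557 in NTC 3. NTC 2 correlated with the Gli2CA libraries at r = 0.819 to 0.833 across the genes tested and with NTC 1 and NTC 3 at 0.730 and 0.775, so values of NTC 2 are given throughout. All 8 markers of type 1 conventional dendritic cells were detected. RNA of more than dendritic cells was present, since the T cell receptor gene Trac was detected too. Trac had 189, 239 and 266 FPKM in Gli2CA and 413, 729 and 516 FPKM in NTC. In such bulk libraries, fewer cells of a type and less RNA per cell cannot be told apart. The labels do not say that libraries of a group came from separate animals, and the p-values speak only for the spread among these libraries, which may be technical.

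No receptor gene reached significance. By limma on log2(FPKM + 1), 0 of the 10 reached an adjusted p of 0.05, as did 0% of all genes tested. Their adjusted p ran from 0.302 to 0.958, and limma's voom on recovered reads also called 0 genes. At an unadjusted p under 0.05 stood 4 of the 10 (Csf1r, Csf2rb2, Il4ra and Il7r), all with the higher mean in Gli2CA, against 10.6% of all genes in either direction and 7.82% with the higher mean in Gli2CA. The 3 Gli2CA libraries lay wholly above the 3 NTC libraries in 4 of the 10 (Csf1r, Il3ra, Il4ra and Il7r), where 10.9% of all genes did so. No receptor lay wholly below, where 5.79% of all genes did, and 16.6% of all genes had no overlap in either direction. With both NTC 1 and NTC 3 left out, an alternative added after seeing the data, the same 4 receptors lay wholly above NTC 2, where 23.1% of all genes did so. Flt3 and Kit lay wholly below NTC 2. The share of all genes below it was not counted, so nothing is read from those receptors. After quantile normalization 0.171% of all genes passed the adjusted test, and no receptor was among them. Of the 10, 6 had the higher mean log2 value in Gli2CA and 4 the lower, and 59.7% of all genes had the higher one. The median log2 difference, Gli2CA minus NTC, was 0.56 over the 10 receptors and 0.25 over all genes. The log2(FPKM + 1) scale understates the change of genes at low levels, here mainly Il7r and Il3ra.

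**Figure D1:**
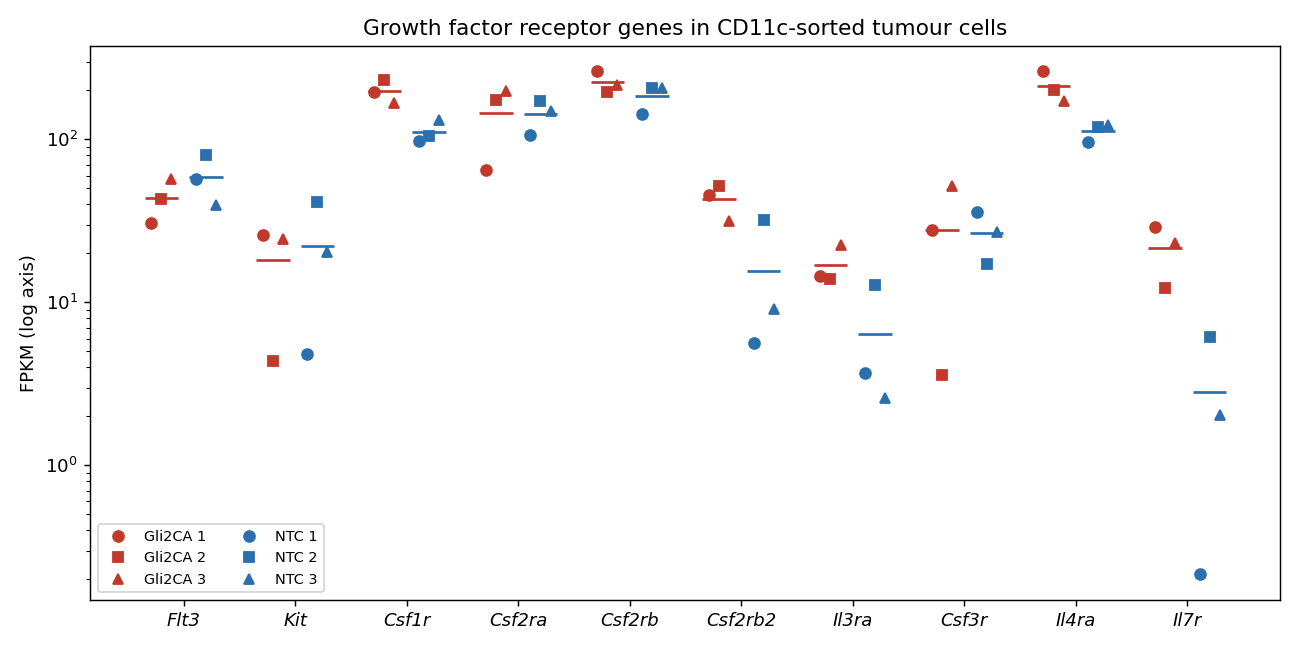
Level of each receptor gene in every library (vertical axis, FPKM on a log axis), with Gli2CA in red to the left of NTC in blue, marker shapes for library numbers and short lines for group means. Csf1r, Il3ra, Il4ra and Il7r are the genes whose red points all lie above the blue points, and Il7r in NTC 1 is the lowest point, at 0.214 FPKM.

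Csf2rb, Il4ra, Csf1r and Csf2ra had the highest mean FPKM in both groups. These FPKM matched a scaling to the mean length of a gene's annotated transcripts, so the order of genes depends on those lengths. In Gli2CA 1, Csf2ra had 2152 recovered reads and Flt3 had 3382, at 64.8 and 30.5 FPKM. The order below is one of FPKM and not of transcript numbers. In Gli2CA the order by mean was Csf2rb (225 FPKM), Il4ra (212), Csf1r (198), Csf2ra (146), Flt3 (43.6), Csf2rb2 (42.9), Csf3r (27.7), Il7r (21.5), Kit (18.2) and Il3ra (16.9). Only Csf2ra and Flt3 were neighbours in that order whose 3 values did not overlap. In NTC the order was Csf2rb (185 FPKM), Csf2ra (143), Il4ra (113), Csf1r (111), Flt3 (58.9), Csf3r (26.6), Kit (22.2), Csf2rb2 (15.5), Il3ra (6.37) and Il7r (2.80). There the neighbours without overlap were Csf1r and Flt3, and Flt3 and Csf3r. Il7r, last in NTC, stood at a median percentile of 63.9 among genes tested in Gli2CA and 35.3 in NTC.

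Flt3, the receptor that dendritic cell progenitors and conventional dendritic cells keep, did not separate the groups. It is encoded at chromosome 5, 147330741 to 147400489 (GRCm38, as for all coordinates here). Flt3 had 30.5, 43.4 and 57.0 FPKM in Gli2CA and 57.2, 79.9 and 39.5 FPKM in NTC. The highest value was that of NTC 2 and the lowest that of Gli2CA 1, and the groups overlapped. Its log2 difference was -0.41 ± 0.44 (SE, limma adjusted p = 0.733). With 1 library left out it ran from -0.17 (without NTC 2) to -0.66 (without NTC 3), and leaving out both NTC 1 and NTC 3 gave -0.90. Beside it, the 8 markers of type 1 conventional dendritic cells all averaged less in Gli2CA, while 59.7% of all genes tested averaged more. Of the 8, 7 lay lower without overlap, as did 5.79% of all genes tested. Their summed level was 691 to 808 FPKM in Gli2CA and 1162 to 2124 FPKM in NTC. Xcr1, the chemokine receptor of that subset, had 7.97 ± 3.11 FPKM in Gli2CA and 39.3 ± 10.5 FPKM in NTC (± SD, 3 libraries each), with Snx22, Batf3 and Irf8 the others of smallest p. The 6 markers of type 2 conventional dendritic cells had 2 members higher and 4 lower, with a summed level of 1246 to 1961 FPKM in Gli2CA and 1691 to 2270 FPKM in NTC. None of these markers passed the limma test over all genes.

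Csf1r, the receptor that monocytes and macrophages need for survival and differentiation, was higher in every Gli2CA library than in any NTC library. It lies at chromosome 18, 61100598 to 61132149. Csf1r had 196, 231 and 167 FPKM in Gli2CA and 98.5, 104 and 131 FPKM in NTC. The groups were 36.1 FPKM apart at their nearest values, those of Gli2CA 3 and NTC 3. The mean was 198 ± 32.1 FPKM in Gli2CA and 111 ± 17.4 FPKM in NTC (both SD, n = 3), a linear ratio of 1.78. The log2 difference was 0.83 ± 0.27 (SE, limma adjusted p = 0.329), and leaving out both NTC 1 and NTC 3 gave 0.91. It held its direction in all 20 alternatives, between 0.71 and 0.95. Markers of monocytes moved beside it. All 8 averaged more in Gli2CA, as did 59.7% of all genes tested. The 8 summed to 2092, 1764 and 2892 FPKM in Gli2CA and 1450, 977 and 1631 FPKM in NTC. Ly6c2, which encodes the Ly6C antigen of classical monocytes, was at 592 ± 178 FPKM in Gli2CA and 155 ± 33.3 FPKM in NTC. Of 9 macrophage markers 7 had the higher mean log2 value, as the direction is counted for every list here. Their summed level overlapped, at 4707 to 9218 FPKM in Gli2CA and 6382 to 9048 FPKM in NTC. Fcgr1, a high-affinity receptor for immunoglobulin G, had 267 ± 32.8 FPKM in Gli2CA and 94.7 ± 46.2 FPKM in NTC, while Apoe had 3451 ± 1802 FPKM in Gli2CA and 4889 ± 1025 FPKM in NTC. The endothelial list summed to 9.89 to 26.4 FPKM in Gli2CA and 0.0972 to 19.6 FPKM in NTC, and the fibroblast list to 327, 76.4 and 59.96 FPKM in Gli2CA and 27.8, 3361 and 1.41 FPKM in NTC. The part of these cell types in the Csf1r values was not tested.

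Within a library, the FPKM of Csf1r exceeded that of Flt3 in all 6, which depends on the lengths used for scaling. By recovered reads Flt3 was ahead in NTC 1 (4087, against 3779 for Csf1r) and NTC 2 (8467 against 5949). The level of the ratio is therefore not read, only its difference between groups. The Csf1r to Flt3 FPKM ratios were 6.43, 5.34 and 2.93 in Gli2CA and 1.72, 1.31 and 3.32 in NTC. Gli2CA 1 and Gli2CA 2 stood above all NTC libraries, and Gli2CA 3 fell below NTC 3, so the groups overlapped. On the log2 scale the ratio averaged 2.19 ± 0.58 for Gli2CA and 0.95 ± 0.68 for NTC (± SD, 3 libraries each), a difference of 1.24. An exact two-sided permutation test gave p = 0.2, where 3 libraries against 3 cannot give less than 0.1. With 1 library left out the difference ran from 0.95 to 1.61.

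**Figure D2:**
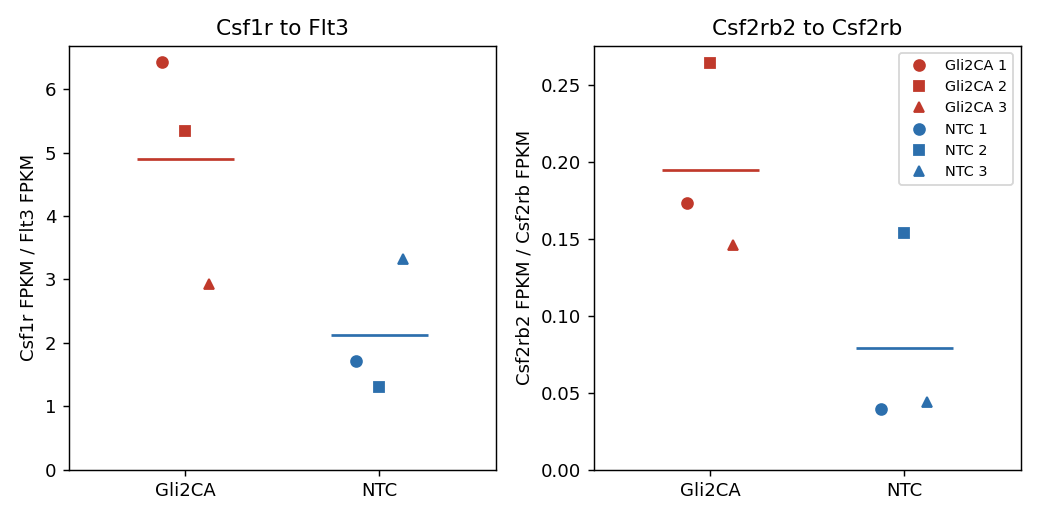
Ratio of Csf1r to Flt3 FPKM (left) and of Csf2rb2 to Csf2rb FPKM (right) in each library, Gli2CA left of NTC, with lines at the group means. In both panels 1 library of each group crosses into the range of the other, Gli2CA 3 with NTC 3 on the left and Gli2CA 3 with NTC 2 on the right.

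Kit, the receptor for stem cell factor carried by progenitors, mast cells and melanocytes, differed more within the groups than between them. It lies at chromosome 5, 75574916 to 75656722. Kit had 25.9, 4.39 and 24.4 FPKM in Gli2CA and 4.83, 41.5 and 20.4 FPKM in NTC. Each group had 1 library under 5 FPKM, and the highest and lowest Kit values differed 5.91-fold within Gli2CA and 8.60-fold within NTC. The log2 difference was -0.17 ± 0.96 (SE, limma adjusted p = 0.958), and leaving out both NTC 1 and NTC 3 gave -1.46, 0.59 without Gli2CA 2 and 0.47 without NTC 2. The mast cell genes Ms4a2 and Gata2 were listed at 0 in every library. The mast cell tryptase Tpsb2 had 1.17, 23.6 and 0 FPKM in Gli2CA and 0, 5.24 and 0.0399 FPKM in NTC, highest in Gli2CA 2, where Kit was lowest. Hdc, the mast cell marker of smallest p, had 8.17, 4.34 and 21.3 FPKM in Gli2CA and 0.0317, 6.05 and 0.0257 FPKM in NTC. Like Kit, Hdc was lowest within Gli2CA in Gli2CA 2 and highest within NTC in NTC 2. The 8 mast cell markers summed to 9.37, 36.4 and 21.3 FPKM in Gli2CA and 0.0317, 20.5 and 0.106 FPKM in NTC. The progenitor genes Mpo, Elane, Prtn3 and Ctsg were at 0 throughout, and the fifth of that list, Cd34, had 5.09 to 7.96 FPKM in Gli2CA and 0.0394 to 25.1 FPKM in NTC. Of 7 melanocyte and melanoma markers, Dct, Tyr, Tyrp1 and Mlana were at 0 in all libraries. Sox10, a neural crest transcription factor in the same list, had 19.8, 12.1 and 18.4 FPKM in Gli2CA and was listed at 0 in all 3 NTC libraries. That list summed to 18.0 to 24.1 FPKM in Gli2CA and 0 to 1.34 FPKM in NTC. The part of such cells in the Kit values was not tested.

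The receptor for GM-CSF pairs a ligand-specific alpha chain, Csf2ra, with the common beta chain Csf2rb. Mice have a second beta chain gene beside it, Csf2rb2, whose product serves the IL-3 receptor with the alpha chain Il3ra. Csf2rb lies at chromosome 15, 78325752 to 78353847 on the plus strand, and Csf2rb2 at 78282507 to 78305721 on the minus strand. Their coding sequences, of 2688 and 2634 bases, matched at 95.35% of 2626 aligned bases. Of all 100-base windows of the Csf2rb2 coding sequence, 11.3% also occurred unchanged in Csf2rb, and the share was 26.6% for windows of 50 bases and 6.64% for windows of 150 bases. A read from such a window fits both genes. How the authors counted such reads is not given in the sources used here, so the values of both genes are uncertain, most of all the low Csf2rb2 levels beside the higher Csf2rb levels. A pair of stretches of 120 bases each shows the range, with capitals at the bases that differ and positions counted from the first coding base. The first pair has the most differences, 22, at 309 to 428 of Csf2rb and 312 to 431 of Csf2rb2, and the second has 0, at 2083 to 2202 of both (GENCODE M21 transcripts).
Csf2rb, most different: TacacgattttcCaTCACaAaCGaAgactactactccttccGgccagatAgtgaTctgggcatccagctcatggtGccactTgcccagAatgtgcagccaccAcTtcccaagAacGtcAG
Csf2rb2, most different: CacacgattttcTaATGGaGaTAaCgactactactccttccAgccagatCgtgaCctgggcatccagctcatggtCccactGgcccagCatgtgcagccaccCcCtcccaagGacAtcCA
Csf2rb and Csf2rb2, identical: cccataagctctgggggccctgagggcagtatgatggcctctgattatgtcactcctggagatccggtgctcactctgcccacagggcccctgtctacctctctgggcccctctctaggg

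Csf2ra, at chromosome 19, 61223957 to 61228429, had 64.8, 175 and 199 FPKM in Gli2CA and 107, 173 and 149 FPKM in NTC. Gli2CA 1 was the lowest of all 6 libraries and the NTC values lay between it and Gli2CA 2. For Csf2ra the difference on the log2 scale was -0.10 ± 0.45 (SE), with a limma adjusted p = 0.949, and without Gli2CA 1 it was 0.41. Csf2rb had 263, 195 and 216 FPKM in Gli2CA and 142, 207 and 206 FPKM in NTC, with a log2 difference of 0.29 ± 0.26 (limma adjusted p = 0.693). Its groups overlapped, and NTC 1 was the lowest library. The difference was 0.17 without Gli2CA 1 and 0.11 without NTC 1.

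Csf2rb2 was the IL-3-specific chain with the wider gap between means. It had 45.5, 51.6 and 31.6 FPKM in Gli2CA and 5.65, 31.9 and 9.11 FPKM in NTC. NTC 1 and NTC 3 were far below, while NTC 2 lay just above the lowest Gli2CA library. The log2 difference was 1.72 ± 0.68 (SE, limma adjusted p = 0.427) over all 6 libraries, 2.39 without NTC 2 and 0.39 without both NTC 1 and NTC 3. Csf2rb2 made up 14.8, 20.9 and 12.7% of the summed beta chain FPKM in Gli2CA and 3.82, 13.3 and 4.24% in NTC. The log2 ratio of Csf2rb2 to Csf2rb averaged -2.38 ± 0.43 for Gli2CA and -3.81 ± 1.00 for NTC (± SD, 3 libraries each; exact two-sided permutation p = 0.2), the difference being 1.43. It was 2.01 without NTC 2 and 1.13 to 1.61 with any other library left out.

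Il3ra, the IL-3 alpha chain at chromosome 14, 14346275 to 14356011 also had its 2 lowest values in NTC 1 and NTC 3. It had 14.6, 13.9 and 22.3 FPKM in Gli2CA and 3.68, 12.8 and 2.59 FPKM in NTC. The groups did not overlap, but NTC 2 reached 12.8 FPKM beside 13.9 in Gli2CA 2. These values rest on 467, 405 and 626 recovered reads in Gli2CA and 76, 393 and 66 in NTC. For Il3ra the difference on the log2 scale was 1.51 ± 0.78 (SE), with a limma adjusted p = 0.516, and leaving out both NTC 1 and NTC 3 gave 0.35. Basophils, which carry the IL-3 receptor, left little trace. Their granule protease genes Mcpt8 and Prss34 and the receptor gene Ms4a2 were at 0 in all libraries, and the 5 markers other than Il3ra summed to 0 to 3.86 FPKM in Gli2CA and 0 to 4.56 FPKM in NTC. The plasmacytoid dendritic cell list, a population that carries IL-3 receptor alpha in humans, had 3 members higher and 4 lower. Its summed level was 494 to 715 FPKM in Gli2CA and 280 to 679 FPKM in NTC, most of it from Bst2 and Tcf4, which other cells also express. Siglech, its most specific member, had 2.95, 0.703 and 3.51 FPKM in Gli2CA and 27.7, 2.25 and 0.268 FPKM in NTC.

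Csf3r, the G-CSF receptor of neutrophils at chromosome 4, 126024550 to 126044440, had 27.8, 3.58 and 51.6 FPKM in Gli2CA and 35.6, 17.3 and 27.0 FPKM in NTC. The highest and the lowest library were both in Gli2CA, and the log2 difference was -0.48 ± 0.90 (SE, limma adjusted p = 0.857). Without Gli2CA 2 it was 0.55, and without both NTC 1 and NTC 3 it was 0.061. The neutrophil markers Ly6g and Retnlg were at 0 in every library. The 7 markers other than Csf3r summed to 23.1, 14.4 and 235 FPKM in Gli2CA and 41.1, 41.6 and 29.7 FPKM in NTC, so Gli2CA 3 was highest in both. S100a8, an abundant neutrophil and monocyte protein gene, had 5.37, 0 and 79.8 FPKM in Gli2CA and 0, 16.0 and 0 FPKM in NTC. The part of neutrophils in the Csf3r values was not tested.

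Il4ra, the chain shared by the IL-4 and IL-13 receptors, was higher in every Gli2CA library than in any NTC library. It lies at chromosome 7, 125552120 to 125579474. Il4ra had 262, 200 and 173 FPKM in Gli2CA and 97.0, 120 and 122 FPKM in NTC. The lowest Gli2CA value, that of Gli2CA 3, was 51.0 FPKM above the highest NTC value. The mean was 212 ± 45.8 FPKM in Gli2CA and 113 ± 13.8 FPKM in NTC (± SD, 3 libraries each), a linear ratio of 1.88. The log2 difference was 0.89 ± 0.27 (SE, limma adjusted p = 0.302), the smallest p of the 10. It was positive in all 20 alternatives, from 0.72 to 1.02, and was 0.80 without both NTC 1 and NTC 3. Its partner chains did not separate the groups. The common gamma chain Il2rg had 351, 365 and 338 FPKM in Gli2CA and 318, 374 and 274 FPKM in NTC. The IL-13 receptor chain Il13ra1 had 54.7, 33.9 and 25.9 FPKM in Gli2CA and 5.55, 33.8 and 29.8 FPKM in NTC. Stat6, the transcription factor that IL-4 receptor signals activate, had 298, 285 and 191 FPKM in Gli2CA and 125, 181 and 163 FPKM in NTC, without overlap (log2 difference 0.71, limma adjusted p = 0.427).

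Il7r, the receptor chain for IL-7 and, with Crlf2, for TSLP, had the largest log2 difference of the 10. It lies at chromosome 15, 9505788 to 9530176. Il7r had 29.1, 12.3 and 23.0 FPKM in Gli2CA and 0.214, 6.16 and 2.02 FPKM in NTC. All Gli2CA libraries lay above all NTC libraries, and the nearest pair, Gli2CA 2 and NTC 2, was 6.17 FPKM apart. The recovered reads were 1901, 733 and 1315 in Gli2CA and 9, 385 and 105 in NTC. The exact Poisson 95% interval of those 9 reads was 4.12 to 17.1, which covers counting error only. For Il7r the log2 difference was 2.84 ± 0.90 (SE, limma adjusted p = 0.313), positive in all 20 alternatives, and 1.57 without both NTC 1 and NTC 3. T cells and innate lymphoid cells express Il7r as well. The 7 T cell markers summed to 559, 788 and 849 FPKM in Gli2CA and 929, 1757 and 1183 FPKM in NTC, and 6 of the 7 had the lower mean in Gli2CA. Cd8a had 89.1 ± 19.1 FPKM in Gli2CA and 156 ± 13.1 FPKM in NTC (± SD, 3 libraries each), and Cd4, the 1 T cell marker with the higher mean, had 8.84, 38.0 and 26.4 FPKM in Gli2CA and 1.54, 20.7 and 0.0986 FPKM in NTC. The 3 tested markers of group 2 innate lymphoid cells all had the higher mean log2 value in Gli2CA. In mean FPKM, Gata3 (13.3 in Gli2CA, 24.4 in NTC) and Rora (2.38 in Gli2CA, 2.59 in NTC) were lower there. That whole list summed to 21.7 to 31.0 FPKM in Gli2CA and 0.675 to 52.2 FPKM in NTC, with Il13 at 0. In NTC 3 most of the sum came from Gata3, at 52.0 FPKM. The natural killer cell list had 2 members higher and 3 lower. It summed to 863 to 1057 FPKM in Gli2CA and 911 to 1703 FPKM in NTC, most of it from Nkg7. Gzma, the member of smallest p, had 85.5, 55.4 and 47.7 FPKM in Gli2CA and 1.31, 7.12 and 21.1 FPKM in NTC, without overlap. The B cell list summed to 11.6 to 32.0 FPKM in Gli2CA and 0.172 to 12.1 FPKM in NTC. Mature migratory dendritic cells also carry Il7r. Of 7 tested markers of that state 6 had the lower mean in Gli2CA. Among them Ccr7, a chemokine receptor that guides cells to lymph nodes, was at 72.3 ± 18.5 FPKM in Gli2CA and 188 ± 78.4 FPKM in NTC. The part of these cell types in the Il7r values was not tested.

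**Figure D3:**
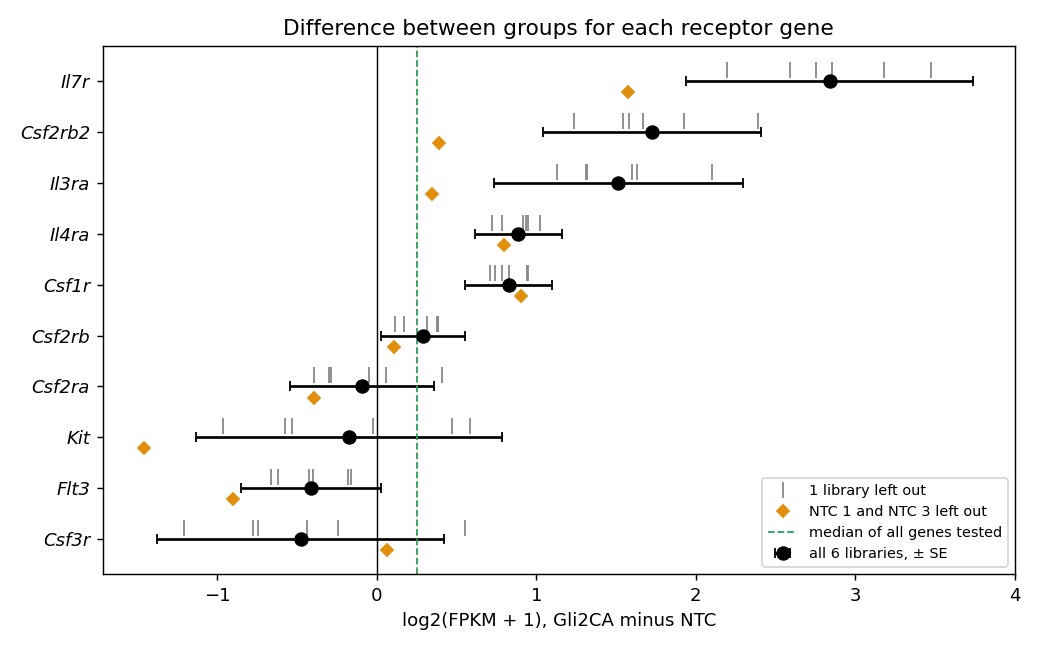
Log2 difference of each receptor gene (horizontal axis, log2(FPKM + 1), Gli2CA minus NTC) with its SE in black, the 6 values with 1 library left out as grey ticks, and the value without NTC 1 and NTC 3 as orange diamonds. The diamonds of Csf1r (0.91) and Il4ra (0.80) stay near the black points, while those of Csf2rb2 (0.39) and Il3ra (0.35) lie far below theirs.

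The region around the start of each gene was examined for 8 of the 10 receptors, in windows of 300 bases (250 before to 50 after the start) from RefSeq (GRCm38.p6). The motifs searched, on both strands, were the ETS core GAGGAA bound by PU.1, the STAT motif TTCNNNGAA, its form with a wider spacing, the C/EBP motif TTNNGNAA, the interferon response element and the Runx motif TGTGGT. They occurred in 28.3%, 8.29%, 6.94%, 40.7%, 3.43% and 16.8% of 32817 windows of the same length, in that order, and matches may overlap. The ETS core was found in the windows of Kit, Csf2ra, Csf2rb2 and Csf3r, and no window of the 8 receptors held the wider STAT form. Only Csf2rb2 and Il7r held TTCNNNGAA, starting at -15 and -142 from the RefSeq start. For Il7r that start differs from the GENCODE position given above, and its whole window, with the match, lies inside the gene as placed there. The windows of Csf2rb2 and Il7r are shown because both genes were lower in NTC 1 and NTC 3 than in any other library. Il3ra had that pattern too, and its window held 0 ETS and 0 STAT matches. The window of Il4ra held 0 matches to all 6 motifs and is shown for comparison. Capitals mark the ETS and STAT matches, and each sequence is printed on the strand of its gene. The windows are chr15:78305672-78305971 (minus strand), chr15:9529827-9530126 (minus strand) and chr7:125552021-125552320 (plus strand). A match describes letters and not binding.
Csf2rb2: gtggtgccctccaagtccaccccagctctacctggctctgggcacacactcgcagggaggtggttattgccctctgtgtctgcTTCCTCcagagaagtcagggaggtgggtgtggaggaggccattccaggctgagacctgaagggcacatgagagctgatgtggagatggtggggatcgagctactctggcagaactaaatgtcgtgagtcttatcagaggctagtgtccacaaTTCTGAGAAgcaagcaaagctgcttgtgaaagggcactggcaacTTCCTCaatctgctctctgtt
Il7r: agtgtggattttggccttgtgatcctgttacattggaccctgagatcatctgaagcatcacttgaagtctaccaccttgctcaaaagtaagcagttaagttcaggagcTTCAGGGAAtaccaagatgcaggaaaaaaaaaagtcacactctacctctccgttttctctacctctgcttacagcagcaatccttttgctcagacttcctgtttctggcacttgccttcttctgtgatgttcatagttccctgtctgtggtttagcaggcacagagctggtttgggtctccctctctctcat
Il4ra: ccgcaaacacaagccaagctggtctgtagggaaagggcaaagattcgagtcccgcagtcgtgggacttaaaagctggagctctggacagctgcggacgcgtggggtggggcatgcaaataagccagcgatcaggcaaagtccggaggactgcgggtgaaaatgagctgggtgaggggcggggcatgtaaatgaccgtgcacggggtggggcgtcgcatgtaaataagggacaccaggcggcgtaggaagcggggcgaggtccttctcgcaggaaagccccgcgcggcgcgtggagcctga

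Several ligands of these receptors were themselves detected. Of 12 ligand genes 5 were tested, 3 with the higher and 2 with the lower mean in Gli2CA, and none passed the limma test over all genes. Their median log2 difference was 0.43, which was 1.67 by voom and -1.25 without both NTC 1 and NTC 3. It was also negative after quantile normalization (-0.23), with the replicate block by description number (-0.51), without Gli2CA 1 (-0.15) and without NTC 3 (-0.23). Il34, the second ligand of CSF1R, had 43.1, 20.4 and 64.0 FPKM in Gli2CA and 0.0532, 5.16 and 0.0432 FPKM in NTC, with a log2 difference of 4.38 (limma adjusted p = 0.195). All Gli2CA values lay above all NTC values, and NTC 2 again stood apart from NTC 1 and NTC 3. Csf1, the first ligand, overlapped, at 24.2, 9.84 and 1.38 FPKM in Gli2CA and 11.4, 19.6 and 0.0434 FPKM in NTC. Kitl, which encodes stem cell factor, had 11.6, 4.15 and 1.68 FPKM in Gli2CA and 0.0322, 0 and 0 FPKM in NTC (log2 difference 2.47, limma adjusted p = 0.318). Tslp, whose protein signals through IL7R and CRLF2, had 2.18, 0.665 and 1.56 FPKM in Gli2CA, too low for the test by its mean over all libraries of under 1 FPKM, and was listed at 0 in all NTC libraries. Crlf2 itself was at 25.5, 39.1 and 52.7 FPKM in Gli2CA and 29.2, 40.5 and 29.8 FPKM in NTC. Flt3l, the ligand of FLT3, had 8.11, 13.01 and 5.77 FPKM in Gli2CA and 4.40, 22.1 and 9.13 FPKM in NTC, with overlap. Csf2, which encodes GM-CSF, had 0.472, 2.12 and 0 FPKM in Gli2CA and 0, 23.9 and 0 FPKM in NTC, so 1 NTC library held most of it. Csf3, Il3, Il5 and Il13 were listed at 0 in all 6 libraries, as was the IL-5 receptor chain Il5ra. Il4 and Il7 stayed under 0.3 FPKM in every library. Il34, Kitl and Tslp each had their 3 highest values in the Gli2CA libraries, the libraries in which Sox10 was detected, and the part of tumour cell RNA in these ligand values was not tested.

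**Figure D4:**
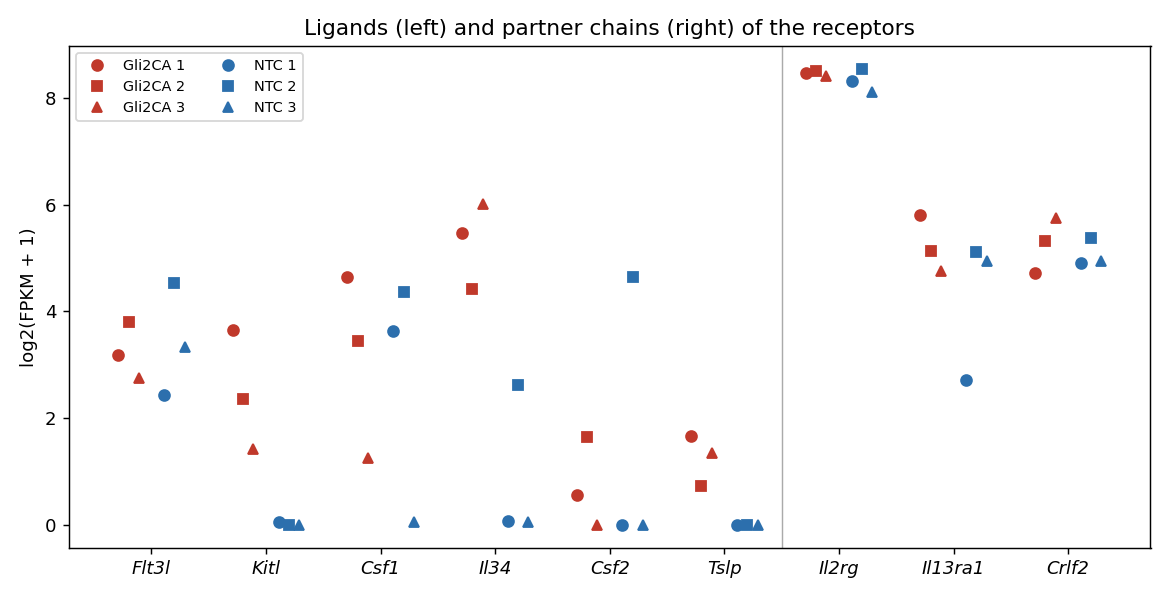
Levels of 6 ligand genes (left of the grey line) and 3 partner chain genes (right) in each library, as log2(FPKM + 1), with Gli2CA in red to the left of NTC in blue. Il34, Kitl and Tslp are the genes whose red points all lie above the blue ones, and Il2rg is high in all 6 libraries.

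Signal transducers below the receptors showed no common direction. Of 16 kinases, adaptors and STAT genes 9 averaged more and 7 less in Gli2CA, at a median log2 difference of 0.10, against 0.25 for all genes tested. Besides Stat6, the Src family kinase gene Lyn lay without overlap, at 194, 261 and 203 FPKM in Gli2CA and 53.2, 174 and 116 FPKM in NTC. Stat5b had 15.9 ± 11.0 FPKM in Gli2CA and 35.9 ± 13.5 FPKM in NTC, and the adaptor gene Grb2 had 63.5 ± 73.1 FPKM in Gli2CA and 86.2 ± 40.4 FPKM in NTC (SD, n = 3 each). Of the 15 inhibitors 9 were higher and 6 lower, with a median of 0.27. That median was -0.08 after quantile normalization, -0.19 without NTC 3 and -0.18 without both NTC 1 and NTC 3. Socs3, a feedback inhibitor of cytokine receptors including that for G-CSF, had 264, 325 and 405 FPKM in Gli2CA and 253, 179 and 27.2 FPKM in NTC. Dok2, an adaptor that dampens tyrosine kinase signals, had 276, 531 and 193 FPKM in Gli2CA and 75.3, 176 and 123 FPKM in NTC. Ptpn6, the phosphatase SHP-1, had 1073 ± 103 FPKM in Gli2CA and 1474 ± 336 FPKM in NTC. Socs7 had 1.43 ± 1.32 FPKM in Gli2CA and 7.13 ± 4.33 FPKM in NTC. The other feedback genes Cish, Socs1 and Socs2 overlapped, Cish at 17.2, 45.1 and 44.3 FPKM in Gli2CA and 22.9, 50.4 and 36.5 FPKM in NTC. Socs1 ran from 1.98 to 27.2 FPKM in Gli2CA and from 15.1 to 26.6 FPKM in NTC, and Socs2 from 11.0 to 27.2 FPKM in Gli2CA and from 23.7 to 31.6 FPKM in NTC. None of the transducers and inhibitors passed the limma test.

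Known target genes of the pathways went both ways. Of the 9 STAT5 target genes 4 averaged more and 5 less in Gli2CA, at a median log2 difference of -0.09. The cytokine gene Osm had 204, 162 and 214 FPKM in Gli2CA and 34.5, 55.3 and 0.227 FPKM in NTC. The cyclin gene Ccnd2 had 172 ± 2.55 FPKM in Gli2CA and 290 ± 59.2 FPKM in NTC (± SD, 3 libraries each). Bcl2l1, which encodes the survival protein BCL-XL, had 46.6 ± 21.6 FPKM in Gli2CA and 17.4 ± 15.4 FPKM in NTC, and Id2 had 674 ± 62.7 FPKM in Gli2CA and 872 ± 143 FPKM in NTC. Of the 12 STAT6 target genes 6 were higher and 6 lower, with a median of -0.15. That median was 0.45 by voom on recovered reads and -0.82 without both NTC 1 and NTC 3. It was also positive with a pseudocount of 0.1 (0.25), without Gli2CA 3 (0.045) and without NTC 2 (0.093). Among them Arg1, which depletes arginine, had 508, 283 and 89.2 FPKM in Gli2CA and 20.8, 107 and 0.148 FPKM in NTC. Chil3 had 61.1, 40.8 and 40.6 FPKM in Gli2CA and 0.0770, 0.104 and 32.7 FPKM in NTC. Retnla, a secreted protein gene induced by IL-4 in mouse macrophages, lay the other way, at 14.4, 17.4 and 0.0655 FPKM in Gli2CA and 55.2, 409 and 23.1 FPKM in NTC. The lectin gene Mgl2 did as well, at 111 ± 92.6 FPKM in Gli2CA and 307 ± 56.4 FPKM in NTC. None passed the limma test (adjusted p of 0.272 to 0.389 for these 4).

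Transcription factors that control myeloid receptor genes had 3 members with the higher and 7 with the lower mean among 10 tested, with a median log2 difference of -0.25. Spi1, which encodes PU.1, an activator of Csf1r and other receptor genes, had 499, 788 and 809 FPKM in Gli2CA and 1024, 833 and 1103 FPKM in NTC, without overlap (log2 difference -0.52, limma adjusted p = 0.477). Irf8, a factor of type 1 dendritic cells and monocytes, had 571 ± 80.3 FPKM in Gli2CA and 1003 ± 343 FPKM in NTC. Klf4 and Ikzf1 lay the other way without overlap, Klf4 at 28.9 ± 6.05 FPKM in Gli2CA and 16.1 ± 5.53 FPKM in NTC and Ikzf1 at 33.7 ± 6.09 FPKM in Gli2CA and 22.2 ± 3.01 FPKM in NTC. Gata2 was at 0 in all libraries.

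Among 10816 other protein-coding genes, those whose log2 values followed a receptor most closely across the 6 libraries were found as a description of these libraries. Closest to Flt3 were Usp1, Eml4 and H2-Q7, with Pearson r of 0.996, 0.983 and 0.981. Closest to Csf1r were Zfp933, Adam17 and Dhx57, with 0.997, 0.992 and 0.989. For Csf2rb they included Ppib and Ilk, with 0.993 and 0.985, and for Il4ra they were Cd9, Actr1b and Pgam1, with 0.983, 0.983 and 0.977. Adam17, a protease that sheds surface receptors, had 49.5, 57.9 and 48.0 FPKM in Gli2CA and 29.4, 30.7 and 38.3 FPKM in NTC. Cd9, a membrane tetraspanin, had 717, 532 and 400 FPKM in Gli2CA and 168, 267 and 202 FPKM in NTC. All 6 points share the difference between the groups.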

How the data were processed

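Deposited values were 1 table of FPKM for 54532 Ensembl gene IDs, 1 column per library, per the file headers. The authors' aligner, counter, annotation, build and strand setting were not given in the sources used here. Each column was assigned through the number in a description, and libraries are named by the number in the titles, so NTC 3 is description number 4. Symbols came from a gene ID table (54409 IDs named), while GENCODE M21 (GRCm38) gave positions, types and lengths for 54495 IDs. Each receptor had 1 ID. FPKM times mean transcript length came to whole multiples of a single step in each library for 96.7 to 98.0% of low values, within 0.05 of a read, which gave the recovered reads. Such floors and intervals cover counting error only.

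Groups were compared with limma 3.58.1 (R 4.3.3), fitted to log2(FPKM + 1) with no term but group, variances moderated with a trend, two-sided. Genes averaging 1 FPKM or more were kept, p-values were adjusted by Benjamini-Hochberg over all 12266 of them, and the threshold was 0.05. Count models were not used for the main result, the unit being FPKM. The test was checked on simulated data. Ratios were tested with exact permutation tests. Receptors and lists were chosen with earlier results of these data known. Named genes were all receptors, up to 4 of each list with the smallest p, a set of ligands, partner chains and inhibitors, and the 3 most alike genes of 4 receptors, of which 1 is not reported here; others are given to show a marker, as at 0 or as the exception of a count, and were chosen after their values were seen. Settings varied were the pseudocount (0.1), the filter (absent, or a mean of 5), 3 other scalings, 2 variance settings, library weights, protein-coding genes alone, replicate blocks, leaving out each library, voom on recovered reads, and, added after seeing the data, leaving out both NTC 1 and NTC 3. Same-numbered libraries did not deviate together (r of -0.042 to -0.0018 by title number), so the numbers were not taken as pairs. Figures used Python 3.11.15 and matplotlib 3.10.9.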

Additional observations from a re-analysis of the deposited data

How the results depend on the processing

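Of 200 combinations of a receptor and an alternative, 192 kept the direction of the log2 difference and none brought a receptor past an adjusted p of 0.05. Those that changed sign were Kit with a replicate block by description number (0.73), without Gli2CA 2 (0.59) and without NTC 2 (0.47), Csf2ra without Gli2CA 1 (0.41) and without NTC 2 (0.055), and Csf3r with the block by description number (0.59), without Gli2CA 2 (0.55) and without both NTC 1 and NTC 3 (0.061). With 1 library left out, Kit ran from -0.96 to 0.59, Csf2ra from -0.39 to 0.41 and Csf3r from -1.21 to 0.55. The cause of these ranges was not tested. After quantile normalization 21 genes passed, against 0 on the values as deposited, and no receptor was among them. That scaling moved the median log2 difference of all genes to -0.03, against 0.25, and Csf1r then stood at 0.87, Il4ra at 0.92, Il7r at 2.22, Csf2rb2 at 1.51 and Il3ra at 1.09. The replicate block by title number, where same-numbered libraries do not deviate together, called 0 genes. It left 1088 at an unadjusted limma p under 0.05, against 1304 without it and 393 with the block by description number. By description number Gli2CA 2 and NTC 3 have no partner. All differences of that block, also those of Kit and Csf3r, therefore rest on Gli2CA 1, Gli2CA 3, NTC 1 and NTC 2 alone. It is thus no check on the full set of libraries. Without both NTC 1 and NTC 3, Il3ra stood at 0.35, Csf2rb2 at 0.39 and Il7r at 1.57. The fewest recovered reads behind a receptor value were 9, for Il7r in NTC 1. The median of the inhibitors also changed sign with library weights (-0.0037) and with the block by description number (-0.29).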
